A study of Mus musculus with 6 samples.

Results

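Messenger levels of 10 genes were followed through LPS stimulation of mouse macrophages: Zfp36, Zfp36l1, Zfp36l2, Btg1, Btg2, Ier2, Ier3, Ier5, Gadd45b and Plk2. They were chosen by symbol as the tristetraprolin family, the BTG family and a set of fast early genes, and are 10 of the 12393 genes that the array annotation names singly. They were measured by 19 of the 22690 probe sets on the array, of which 18 passed the filter on low signals (13100 of all probe sets did), and each of the 10 genes kept at least 1. RNA came from bone marrow-derived macrophages, grown from C57BL/6J bone marrow in medium conditioned by L929 cells, of IκBβ knockout (KO) and wild-type (WT) mice. Cells received LPS, the outer-membrane lipid of Gram-negative bacteria and the ligand of Toll-like receptor 4, at 1 µg/ml for 0, 1 or 5 h. Each genotype and time had 1 array, so there were 6 arrays and no replicates. The labels do not say whether the arrays of a genotype came from the same animal.

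Tristetraprolin, the product of Zfp36, binds AU-rich elements in the tails of cytokine messengers through a pair of zinc fingers and recruits the CCR4-NOT complex, which shortens the poly(A) tail and starts decay of the messenger. Zfp36l1 and Zfp36l2 encode relatives with the same kind of zinc fingers. BTG proteins bind the deadenylase subunits of the same complex and slow proliferation, and in macrophages tristetraprolin is known as a brake on Tnf. The other genes are switched on within minutes to hours of a stimulus without new protein synthesis in many cell types, and several encode short-lived proteins or unstable messengers themselves.

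The 10 genes lie on 7 chromosomes of GRCm38.p6, and 3 chromosomes hold a pair of them: Btg2 and Ier5 on chromosome 1, Btg1 and Gadd45b on chromosome 10, and Zfp36l2 and Ier3 on chromosome 17. Upstream sequence from RefSeq (GRCm38.p6) was matched for 8 of the 10; Ier2 and Zfp36l2 are named only. The 250 bases before the annotated start of 4 of the genes are shown because these windows hold 1 of the 3 motifs that were rarest over all promoters among the 6 searched (CArG box, TGACGTCA and NF-kB consensus), and they are written 5′ to 3′ in the direction of transcription. Zfp36 (chr7:28379229-28379478, minus strand) has a CArG box, the motif of serum response factor, 58 to 49 bases before the start and the EGR-type motif GCGNGGGCG 105 to 97 bases before it. Ier3 (chr17:35821463-35821712, plus strand) has an NF-kB consensus on the opposite strand, 92 to 83 bases before the start. Btg2 (chr1:134079156-134079405, minus strand) and Plk2 (chr13:110394794-110395043, plus strand) have TGACGTCA, the full cyclic AMP response element, 166 to 159 and 62 to 55 bases before their starts, and Btg2 also has GCGNGGGCG 131 to 123 bases before it. Capitals mark these matches.
Zfp36: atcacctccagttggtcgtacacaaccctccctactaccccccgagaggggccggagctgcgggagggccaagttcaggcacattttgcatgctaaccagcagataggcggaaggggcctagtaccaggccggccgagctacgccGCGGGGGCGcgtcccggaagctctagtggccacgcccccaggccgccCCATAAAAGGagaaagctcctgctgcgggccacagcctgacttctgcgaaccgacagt
Ier3: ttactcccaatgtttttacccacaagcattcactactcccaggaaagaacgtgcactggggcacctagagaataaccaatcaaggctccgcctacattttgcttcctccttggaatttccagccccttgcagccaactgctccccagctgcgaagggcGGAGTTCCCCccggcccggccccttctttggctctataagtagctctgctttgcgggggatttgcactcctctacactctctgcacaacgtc
Btg2: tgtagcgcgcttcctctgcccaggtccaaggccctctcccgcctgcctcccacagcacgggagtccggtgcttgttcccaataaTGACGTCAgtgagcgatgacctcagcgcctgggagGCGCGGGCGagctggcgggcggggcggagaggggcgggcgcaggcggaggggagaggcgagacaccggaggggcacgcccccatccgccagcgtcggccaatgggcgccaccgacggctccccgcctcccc
Plk2: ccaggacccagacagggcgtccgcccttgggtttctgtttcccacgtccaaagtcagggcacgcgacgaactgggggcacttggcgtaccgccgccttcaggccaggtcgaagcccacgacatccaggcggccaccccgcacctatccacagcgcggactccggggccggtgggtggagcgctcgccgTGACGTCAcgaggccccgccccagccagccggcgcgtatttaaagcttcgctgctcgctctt

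The 6 motifs were searched on both strands, and a match is a description of letters, not of a bound site. Of 32851 promoters of the same length, 3.9% held the NF-kB consensus, 1.47% a CArG box, 1.55% TGACGTCA, 6.75% the AP-1 type TGANTCA, 4.7% GCGNGGGCG and 12.4% TATAAA. Among the 8 matched genes GCGNGGGCG was found in 3 (Zfp36, Btg2 and Gadd45b), TATAAA in 3 (Zfp36l1, Btg1 and Gadd45b) and TGANTCA in 1 (Zfp36l1). No motif was shared by more than 3 of the 8.

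The signals are MAS5 intensities on a linear scale, and log2 differences were taken after signals under 18.3, the 25th percentile of all values, had been raised to that floor. The array medians were 117, 98.7 and 65.2 in KO and 113, 105 and 70.7 in WT at 0, 1 and 5 h, although every array had been scaled to the same trimmed mean. All 8 macrophage markers, among them Csf1r, Adgre1 and Cd68, exceeded the median of every array. None of the 3 measured B cell or 4 T cell markers exceeded the median on any array; 1 of 3 neutrophil, 1 of 4 fibroblast and 2 of 4 dendritic cell markers did so on at least 1. Macrophage markers summed to signals of 81200 to 88920 on KO arrays and 87850 to 91900 on WT arrays. In bulk RNA such as this, a smaller share of a cell type and less of an RNA per cell cannot be told apart. Nfkbib, which encodes IκBβ, read 30.5, 136 and 56.1 in KO and 477, 3330 and 5007 in WT at 0, 1 and 5 h; where its probes lie relative to the deletion is not stated by the labels. Xist read 2149 to 5634 on the KO arrays and 52.1 to 80.4 on the WT arrays, and Eif2s3y, a Y-linked gene, 0.896 to 10.7 in KO and 570 to 860 in WT, so genotype and sex cannot be told apart.

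The LPS changes shared by the genotypes were estimated with limma in a fit of genotype and time over all 13100 probe sets, with Benjamini-Hochberg adjustment over all of them and a call at an adjusted p under 0.05. The fit's spread measures how far KO and WT arrays differed in their LPS change, not the spread between animals, and it cannot show an LPS change limited to 1 genotype. After 1 h, 8 of the 10 genes were called higher on their brightest probe set, 1 (Zfp36l2) was called lower and 1 (Ier5) was not called. In this comparison 5.32% of all probe sets were called higher and 4.61% lower. After 5 h, 6 genes were called higher (Zfp36, Btg2, Ier2, Ier3, Gadd45b and Plk2), 3 lower (Zfp36l1, Zfp36l2 and Btg1) and 1 (Ier5) not, against a background of 20.8% higher and 49.8% lower. Between 1 h and 5 h no gene was called higher and 7 were called lower, where 19% of probe sets were called higher and 41.9% lower; the other 3, Zfp36, Gadd45b and Plk2, were not called. The median log2 change of the 10 genes was 1.72 at 1 h and 0.85 at 5 h, beside −0.17 and −0.48 for all kept probe sets.

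**Figure D1:**
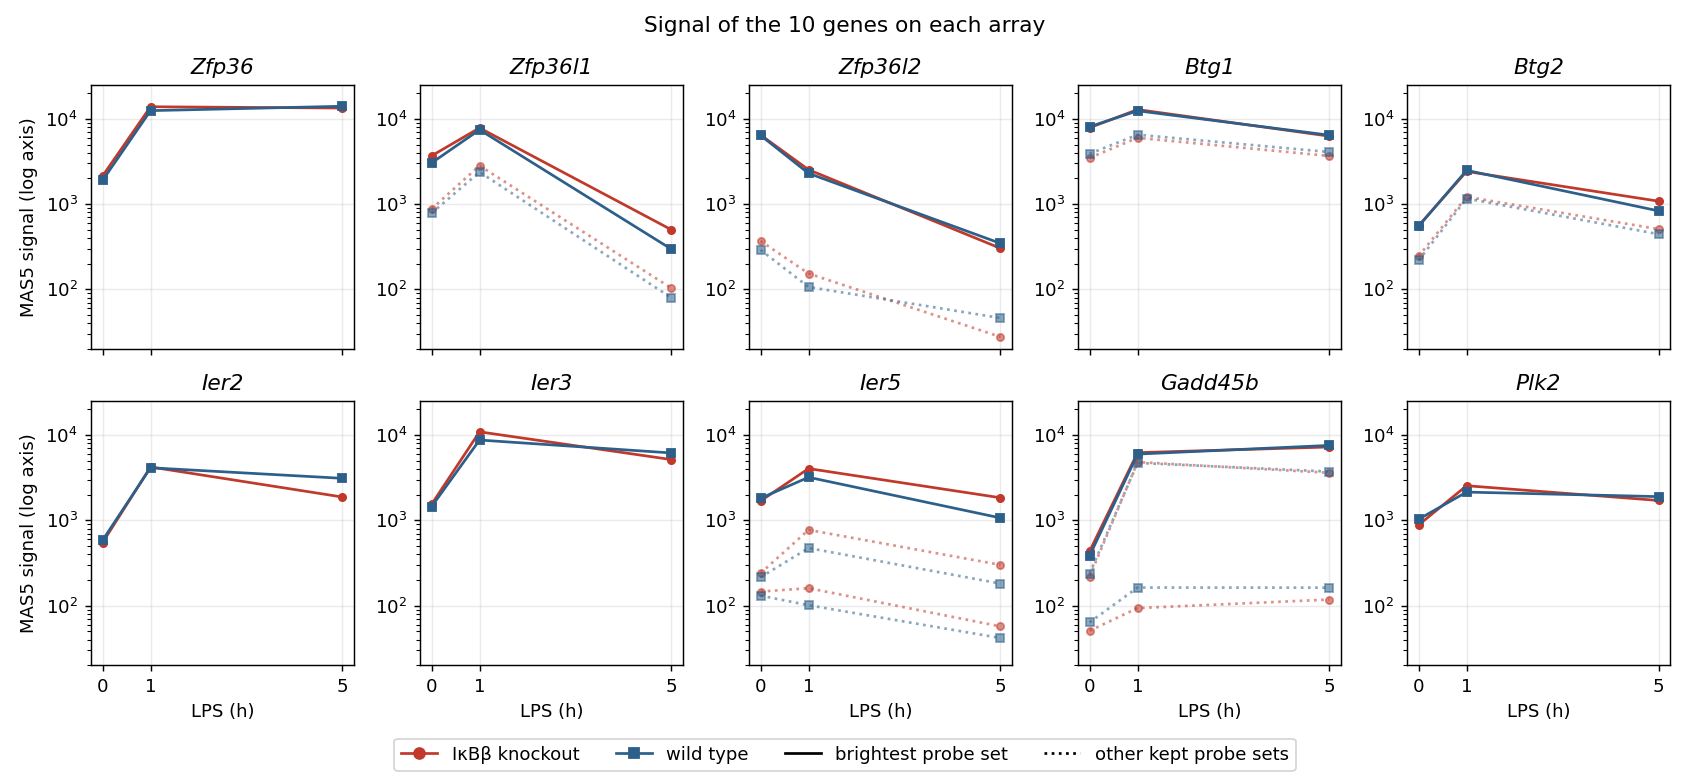
MAS5 signal (log axis) of each of the 10 genes against hours of LPS, with KO arrays as red circles and WT arrays as blue squares, the brightest probe set joined by solid lines and other kept probe sets by dotted lines; each point is 1 array. Zfp36 and Gadd45b stayed high at 5 h, Zfp36l1 and Zfp36l2 ended far below their 0 h signals, and the brightest probe sets of the other genes peaked at 1 h.

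The 3 genes of the tristetraprolin family took 3 different courses. Zfp36 (chromosome 7, 28376784 to 28379228) had signals of 2134, 13873 and 13391 at 0, 1 and 5 h of LPS in KO macrophages, and of 1897, 12483 and 14056 in WT macrophages. All 4 stimulated arrays lay far above both 0 h arrays, and the 1 h and 5 h signals overlapped. Zfp36 rose 6.54-fold at 1 h (log2 2.71, SE 0.12, adjusted p = 0.00314) and 6.82-fold at 5 h (log2 2.77, SE 0.12, adjusted p = 0.000417). The 5 h minus 1 h difference was 0.06 (SE 0.12, adjusted p = 0.698).

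Zfp36l1 (chromosome 12, 80107760 to 80113013), which encodes a tristetraprolin relative also known from lymphocyte development, was transient. Its brighter probe set, 1450644_at, read 3682, 7834 and 500 in KO and 3039, 7444 and 296 in WT. Its other probe set, 1422528_a_at, read 878, 2826 and 103 in KO and 782, 2378 and 79.5 in WT. Both probe sets were highest at 1 h and lowest at 5 h in both genotypes, with no overlap between times. On 1450644_at the gene rose 2.28-fold at 1 h (log2 1.19, SE 0.20, adjusted p = 0.0408) and fell 8.70-fold below 0 h at 5 h (log2 −3.12, SE 0.20, adjusted p = 0.000633). The 1 h call was lost without either 0 h or either 1 h array (log2 0.97 to 1.41, adjusted p 0.13 to 0.194) and at a lower floor (adjusted p = 0.0502), while 1422528_a_at gave log2 1.65 at 1 h (adjusted p = 0.00651) and −3.19 at 5 h. Between 1 h and 5 h 1422528_a_at fell by 4.84 on the log2 scale, the 15th lowest of 13100 probe sets, and 1450644_at by 4.31, the 46th lowest.

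Zfp36l2 (chromosome 17, 84183924 to 84187947), the third relative, was lower at each successive time. Its brightest probe set, 1437626_at, read 6483, 2531 and 303 in KO and 6399, 2296 and 346 in WT. The times did not overlap, and the KO and WT signals lay close together at each of them. Zfp36l2 fell 2.67-fold at 1 h (log2 −1.42, SE 0.13, adjusted p = 0.0119) and 19.9-fold at 5 h (log2 −4.31, SE 0.13, adjusted p = 0.000402), where it was the 66th lowest of 13100. The 1 h call was lost without either 0 h or either 1 h array (adjusted p 0.0787 to 0.1); the 5 h call was not lost without any 1 array. The dimmer 1451034_at read 369, 153 and 27.7 in KO and 290, 107 and 46.1 in WT. Its log2 change was −1.36 at 1 h (adjusted p = 0.09, not called) and −3.20 at 5 h (adjusted p = 0.00209). It passed the filter only through the 4 arrays at 0 h and 1 h, so its 5 h fall is not separate support. The third probe set, 1439054_at, read 14.7 to 36.9 and lay under every array's median, so it was not tested.

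Btg1 (chromosome 10, 96617001 to 96622813) and Btg2 (chromosome 1, 134074865 to 134079155) encode antiproliferative partners of the deadenylases. Btg1 was bright throughout: 1426083_a_at read 7868, 12858 and 6262 in KO and 8085, 12431 and 6433 in WT. The 3 times did not overlap: the 1 h arrays were the highest, and the 5 h arrays lay 1.26-fold below the 0 h arrays on average. Btg1 rose 1.59-fold at 1 h (log2 0.66, SE 0.11, adjusted p = 0.038) and was called lower at 5 h (log2 −0.33, SE 0.11, adjusted p = 0.0496). Neither call held when any 1 of the 6 arrays was left out (adjusted p 0.0584 to 0.249 at 1 h and 0.0854 to 0.263 at 5 h). At 5 h the adjusted p was 0.0501 at a lower floor. The 5 h change depended on the scaling, at −0.60 (adjusted p = 0.0115) after quantile normalization and 0.43 (adjusted p = 0.0437) when array medians were made equal. The second probe set, 1437455_a_at, gave log2 0.76 at 1 h (adjusted p = 0.0276) and 0.07 at 5 h (adjusted p = 0.579), so the probe sets differ on the direction at 5 h.

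Btg2, which is also a p53 target, had signals of 559, 2416 and 1083 in KO and 550, 2490 and 833 in WT on 1416250_at. Both 1 h arrays were the highest, both 0 h arrays the lowest, and the 5 h arrays lay between them. Btg2 rose 4.42-fold at 1 h (log2 2.15, SE 0.15, adjusted p = 0.00651) and 1.71-fold at 5 h (log2 0.78, SE 0.15, adjusted p = 0.0112), and was lower at 5 h than at 1 h by 1.37 (adjusted p = 0.00307). The second probe set, 1448272_at, gave 2.36 and 1.04 on the log2 scale and was called at both times. On 1416250_at the 5 h call was lost without the KO 0 h array (adjusted p = 0.0771) and with no filter on low signals (adjusted p = 0.0505), and the 5 h change was 1.54 with equal array medians.

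The IER genes are named for their immediate early response, and took 2 courses. Ier2 (chromosome 8, 84661331 to 84662852), a nuclear protein gene, read 548, 4234 and 1879 in KO and 584, 4142 and 3115 in WT. Its 0 h signals were the lowest, its 1 h signals the highest, and its 5 h signals lay between them, lower in KO than in WT. Ier2 rose 7.40-fold at 1 h (log2 2.89, SE 0.22, adjusted p = 0.00785) and 4.28-fold at 5 h (log2 2.10, SE 0.22, adjusted p = 0.00201). The fall between 1 h and 5 h was called (log2 −0.79, SE 0.22, adjusted p = 0.0386), but not without any array other than WT at 5 h (adjusted p 0.0558 to 0.198). It was −0.44 without KO at 5 h and −1.14 without WT at 5 h.

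Ier3 (chromosome 17, 35821713 to 35822911), also called IEX-1, encodes a survival-related protein and has an unstable messenger that is a known tristetraprolin target. Its probe set read 1544, 10935 and 5166 in KO and 1450, 8763 and 6179 in WT. The order of the times was the same in both genotypes, with 1 h highest and 0 h lowest. Ier3 rose 6.54-fold at 1 h (log2 2.71, SE 0.18, adjusted p = 0.00575) and 3.78-fold at 5 h (log2 1.92, SE 0.18, adjusted p = 0.00137). It was lower at 5 h than at 1 h by 0.79 (adjusted p = 0.0197); without KO at 1 h or without KO at 5 h this fall was not called (adjusted p = 0.111 and 0.0587).

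Ier5 (chromosome 1, 155096367 to 155099636), which encodes a regulator of heat shock factor activity, gave log2 changes in different directions on different probe sets at 1 h. On 1417612_at it read 1689, 4054 and 1843 in KO and 1818, 3205 and 1069 in WT, on 1417613_at 240, 774 and 301 in KO and 215, 474 and 181 in WT, and on 1460009_at 146, 160 and 57.1 in KO and 131, 101 and 41.7 in WT. The first and second of these peaked at 1 h in both genotypes, while the dim 1460009_at had its lowest signals at 5 h and no common peak. At 1 h the log2 change was 1.04 (SE 0.24, adjusted p = 0.0755) on 1417612_at, 1.41 (adjusted p = 0.0258) on 1417613_at and −0.12 (adjusted p = 0.633) on 1460009_at. At 5 h against 0 h 1460009_at was called lower (log2 −1.50, adjusted p = 0.00204), while 1417612_at (−0.32, adjusted p = 0.291) and 1417613_at (0.04, adjusted p = 0.866) were not called. Between 1 h and 5 h all 3 were called lower: they fell by 1.36, 1.37 and 1.38 on the log2 scale. The dim 1460009_at passed the filter only through 3 arrays, all at 0 h or 1 h, so its lower signals at 5 h are not separate support. Without either 1 h array the call on 1417612_at was lost (adjusted p = 0.064 without KO and 0.0633 without WT).

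Gadd45b (chromosome 10, 80930091 to 80932204), a stress sensor that activates the MTK1 kinase upstream of p38 and JNK, showed the largest rise of the 10. On 1450971_at it read 435, 6235 and 7262 in KO and 385, 5996 and 7581 in WT. The stimulated signals were all more than 10 times the 0 h signals, and the 5 h arrays were slightly above the 1 h arrays. Gadd45b rose 14.9-fold at 1 h (log2 3.90, SE 0.12, adjusted p = 0.00186) and 18.1-fold at 5 h (log2 4.18, SE 0.12, adjusted p = 0.000402), and the difference between these times was 0.28 (adjusted p = 0.109). The second probe set, 1449773_s_at, read 219, 4828 and 3615 in KO and 238, 4724 and 3739 in WT; it rose by 4.39 on the log2 scale at 1 h, the 44th highest of 13100, and was called lower at 5 h than at 1 h (log2 −0.38, adjusted p = 0.0426). The direction between 1 h and 5 h thus differed between these probe sets. The dim 1420197_at read 50.7 to 163 and rose by 1.12 and 1.28. It passed the filter only through 3 arrays with LPS, so these rises are not separate support.

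Plk2 (chromosome 13, 110395044 to 110400844), a polo-like kinase first described as serum-inducible, read 884, 2551 and 1713 in KO and 1032, 2148 and 1901 in WT. Its 0 h arrays were the lowest and its 1 h arrays the highest. Plk2 rose 2.45-fold at 1 h (log2 1.29, SE 0.16, adjusted p = 0.0223) and 1.89-fold at 5 h (log2 0.92, SE 0.16, adjusted p = 0.00822). The difference between 5 h and 1 h was −0.38 (SE 0.16, adjusted p = 0.11). The 1 h call was lost when any 1 array was left out (adjusted p 0.0543 to 0.129), and the 5 h call without KO at 0 h (adjusted p = 0.0584) or WT at 5 h (adjusted p = 0.0503). With equal array medians the 5 h change was 1.68.

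Most 1 h calls were lost when a 1 h array was left out. A fit without 1 array has 1 residual degree of freedom. Without the KO 1 h array or without the WT 1 h array, 2 genes (Zfp36 and Gadd45b) were called higher and none lower, though the 10 log2 changes had the same direction; the same pair was called with no filter on low signals. Leaving out a 0 h or 5 h array left 5 or 6 genes called higher. At 5 h 4 to 6 genes were called higher without any 1 array, and Zfp36l1 and Zfp36l2 were called lower each time. When array medians were made equal, the median change of all probe sets at 5 h was 0.28 on the log2 scale in place of −0.48, the 5 h minus 1 h falls of Btg1, Ier2, Ier3 and Ier5 were no longer called, and Zfp36 (0.64) and Gadd45b (0.86) were called higher at 5 h than at 1 h. The falls of Zfp36l1, Zfp36l2 and Btg2 between 1 h and 5 h were called under that scaling too, with that of Btg2 at −0.78 in place of −1.37. Over all probe sets, 53.6% of the calls at 1 h and 29.4% at 5 h were higher; the shares were 63.7% and 44% after quantile normalization and 71% and 62.9% with equal medians.

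**Figure D2:**
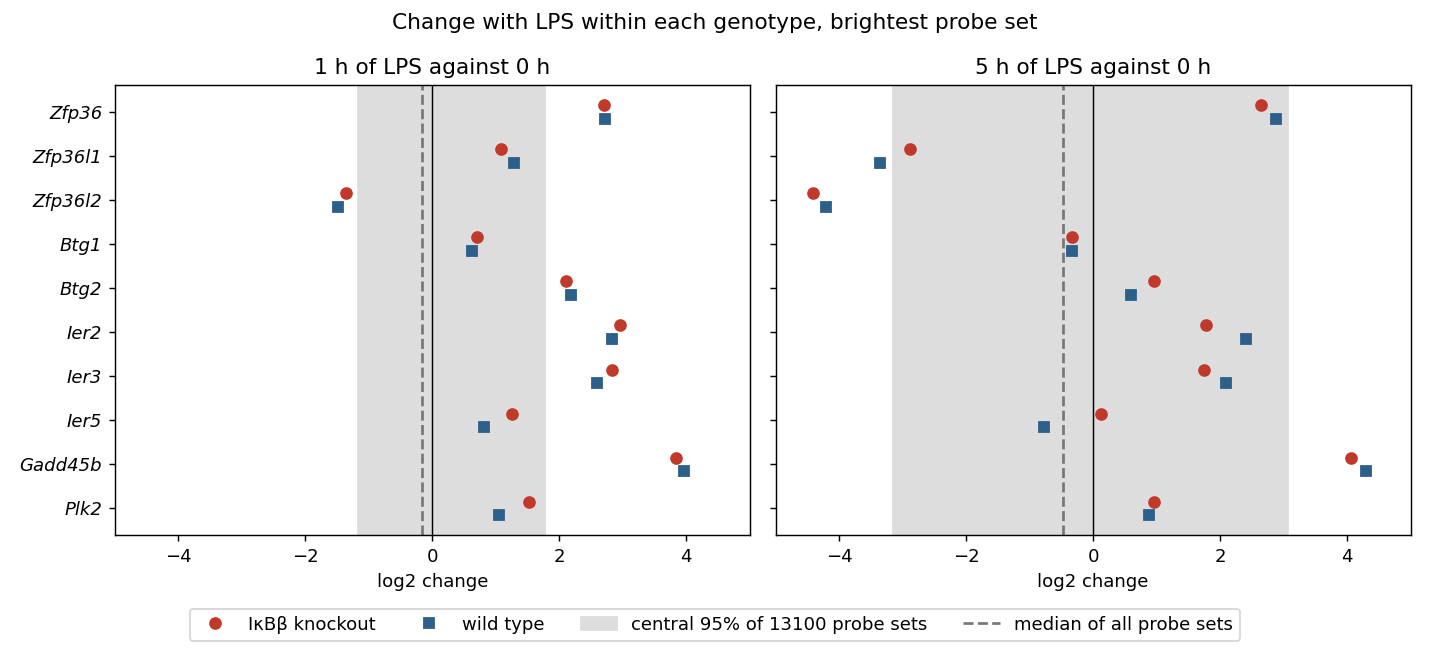
Log2 change with LPS within KO (red circles) and within WT (blue squares) on the brightest probe set of each gene, at 1 h (left) and 5 h (right) against 0 h; each point is a difference of 2 arrays, the dashed line is the median of all probe sets and the grey band holds the central part of their fitted changes, −1.17 to 1.77 at 1 h and −3.15 to 3.08 at 5 h. At 1 h Zfp36, Btg2, Ier2, Ier3 and Gadd45b lay above the band and Zfp36l2 below it in both genotypes; at 5 h Gadd45b lay above and Zfp36l2 below it in both.

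Within a genotype each change is a difference of 2 arrays and has no test. At 1 h 12 of the 18 probe sets were at least 2-fold higher and 2 at least 2-fold lower in either genotype. The 12 were not the same: 1417612_at of Ier5 was among them only in KO, and 1420197_at of Gadd45b only in WT. On the brightest probe sets 8 genes were 2-fold higher in KO and 7 in WT. Over all probe sets the shares were 5.41% higher and 4.9% lower in KO, and 5.82% higher and 3.98% lower in WT. At 5 h the counts were 7 higher and 5 lower in KO and the same in WT, where 13.9% and 34.2% of all probe sets in KO and 14% and 31.5% in WT were higher and lower. Between 1 h and 5 h none was 2-fold higher, and 12 in KO and 9 in WT were 2-fold lower. On the brightest probe sets 7 genes were 2-fold lower in KO and 4 in WT. The background was 11.6% higher and 26.5% lower in KO and 11.2% higher and 24.8% lower in WT. The counts of probe sets lower at 5 h include 1451034_at of Zfp36l2 and 1460009_at of Ier5, which passed the filter only through arrays at 0 h or 1 h. The KO and WT changes of Zfp36l2 at 5 h were −4.42 and −4.21, and those of Gadd45b 4.06 and 4.30.

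No difference between the genotypes was called for any of the 18 probe sets in the shared genotype term of the limma fit, in which 0% of all probe sets were called higher and 0.0305% lower (4 probe sets). Without adjustment, 4 of the 18 had p under 0.05, none of them a gene's brightest: 1417613_at (log2 0.53) and 1460009_at (0.42) of Ier5, 1422528_a_at of Zfp36l1 (0.26) and 1420197_at of Gadd45b (−0.53), with adjusted p of 0.534 to 0.589. On the brightest probe sets KO minus WT was between −0.26 (Ier2, SE 0.18) and 0.37 (Zfp36l1, SE 0.16). Such a fit with 2 residual degrees of freedom does not show that the genotypes were alike.

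At single times none of the 18 probe sets differed 2-fold between KO and WT at 0, 1 or 5 h. Over all probe sets, 1.02% were 2-fold higher and 1.15% 2-fold lower in KO at 0 h, 1.18% higher and 1.92% lower at 1 h, and 1.92% higher and 2.71% lower at 5 h. The SD of KO minus WT over all kept probe sets was 0.37, 0.42 and 0.48 at these times. The widest values among the brightest probe sets were all at 5 h: Ier5 at 0.79, Zfp36l1 at 0.76 and Ier2 at −0.73. The 3 probe sets of Ier5 were each higher in KO at 1 h (0.34, 0.71 and 0.66) and at 5 h (0.79, 0.73 and 0.45), and at 0 h they read −0.11, 0.16 and 0.16. These values rest on 1 array a side and have no replicate check.

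**Figure D3:**
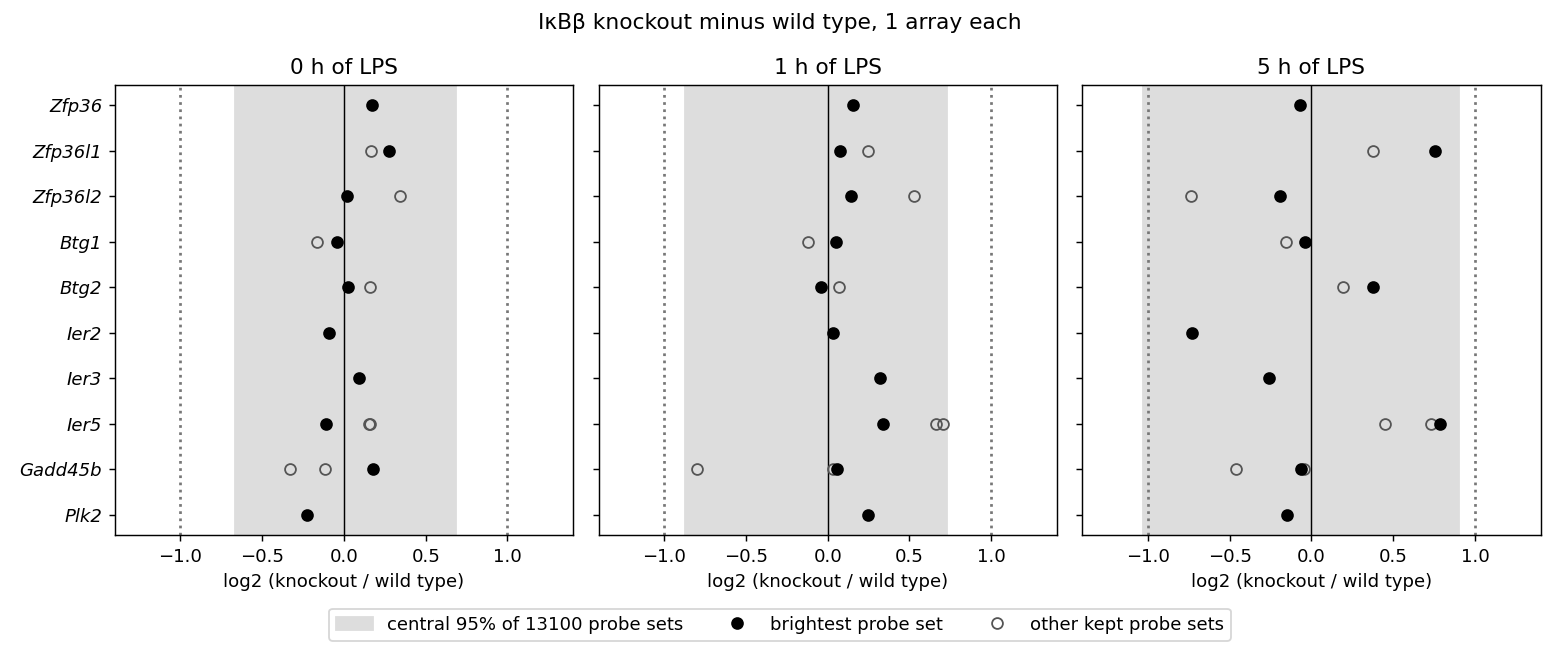
Log2 of KO over WT for each gene at 0, 1 and 5 h of LPS, each point 1 pair of arrays, with filled circles for the brightest and open circles for the other kept probe sets; dotted lines mark 2-fold and the grey band holds the central part of all probe sets (−0.67 to 0.68 at 0 h, −0.87 to 0.73 at 1 h, −1.03 to 0.90 at 5 h). Every point lies inside the 2-fold lines.

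Nearest profiles were found among 7497 other genes by the root mean square distance (in log2 units) between 6-array profiles, each centred on its own mean. Zfp36 was nearest to Pim1 (0.0689), then Nfkbie and Cflar. Gadd45b was nearest to Ccl3 (0.0989), then Sdc4 and Nfkbiz. Ier3 and Ier2 both had Ets2 first (0.0892 and 0.187), and the distance between Ier2 and Ier3 themselves was 0.188, the smallest between any 2 of the 10 genes. Btg2 was nearest to Ccr3 (0.09), then Skil and Cd83. Ier3 was next nearest to Fosl2 and Rabgef1, and Ier2 to A630072M18Rik and Mdm2. Plk2 was nearest to Ptpn23 (0.0907), then Mapk6 and Sphk1, and Btg1 to Usp16 (0.0609), then Pofut2 and Ube2h. Ier5 was nearest to Top1 (0.211), then Ccr1 and Pdgfa. Zfp36l2 was nearest to Atmin (0.2), then Marveld1 and Gmnn, and Zfp36l1 to Gpr65 (0.282), then Fam43a and Bcl2l11. Zfp36l1, Zfp36l2, Ier2 and Ier5 had no profile as near as those of Zfp36 and Gadd45b. The distance counts the size of a change as well as its timing.

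Genes of the same families and of the decay machinery were set beside the 10. The counts in these lists stand beside the shares of all probe sets called, 5.32% higher and 4.61% lower at 1 h and 20.8% higher and 49.8% lower at 5 h. Some list genes passed the filter only through the times where they were high, and their calls are not separate support. Of the BTG and TOB relatives, Tob1 and Tob2 were kept; neither was called at 1 h and both were called lower at 5 h (log2 −0.74 and −0.92), but neither with equal array medians. Among 7 kept GADD45, IER and PLK relatives, 1 was called higher at 1 h (Plk3, log2 1.88) and 2 lower (Ier5l, −1.47, and Gadd45gip1, −0.82); at 5 h 1 was higher (Gadd45g, 1.92) and 3 lower (Ier5l, −2.40, Gadd45a, −1.53, and Gadd45gip1, −0.87). The median of these 7 was 0.60 at 1 h and −0.31 at 5 h. With equal medians 4 were called higher and 1 lower at 5 h. Ier5l exceeded the array median only at 0 h, and Plk3 only on arrays with LPS, so the filter favoured their calls.

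Of 13 genes of deadenylation 1 was called at 1 h, Noct (higher by 4.64, adjusted p = 0.0127), which encodes an NADP(H) phosphatase first described as a circadian deadenylase. At 5 h 2 were higher (Noct, 3.62, and the deadenylase subunit Cnot7, 0.55) and 7 lower, among them Cnot6l (−1.94) and Parn (−1.88); the list median was −0.52 beside −0.48 for all probe sets, of which 49.8% were called lower. None of 11 decapping and 5′ decay genes was called at 1 h; at 5 h the decapping activator Dcp1a (1.73), the exonuclease Xrn2 (1.51) and Xrn1 (0.79) were called higher and 5 lower, with Dcps (−2.00) and Lsm2 (−0.81) the lowest. Of 12 exosome and cofactor genes 1 was called lower at 1 h (Exosc4, −0.95) and 9 at 5 h (beside 4.61% and 49.8% of all probe sets), of which Exosc7 (−1.66) was lowest, with a list median of −0.62; 3 were called lower after quantile normalization, and 2 higher and 2 lower with equal medians. The 5 h direction of the deadenylation and decapping lists depended on the scaling too: with equal medians 5 were higher and 3 lower, and 4 higher and 1 lower.

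Other AU-rich and stem-loop binding proteins numbered 10. At 1 h 1 was called higher, Zc3h12a (3.36, adjusted p = 0.00495), the stem-loop nuclease Regnase-1. At 5 h 5 were higher, including Zc3h12a (3.38) and Hnrnpd (0.69), and 3 lower (Tial1, −1.13, Tia1, −1.09, and Ybx1, −0.73); with equal medians 7 were higher and none lower. Of 8 genes of the p38 and MK2 pathway, PP2A and 14-3-3 proteins with Dusp1, which control tristetraprolin's phosphorylation, 2 were called higher at 1 h: Dusp1, the p38 phosphatase (4.76, adjusted p = 0.00157), and Mapkapk2, which encodes MK2 (1.48, adjusted p = 0.00653). At 5 h Dusp1 (4.67) and Mapkapk2 (1.93) were among 4 called higher, and Mapk14, which encodes p38α, fell to signals of 327 in KO and 508 in WT, against 3302 and 3365 at 0 h (log2 −3.03, adjusted p = 0.000764). With equal medians 7 of the 8 were called higher and 1 lower at 5 h.

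Transcripts known as tristetraprolin targets were kept for 21 genes, 1 of them Ier3. Most of these are cytokine or chemokine genes, and the list was chosen with earlier results of these data known. Its rise with LPS is thus no test of tristetraprolin. At 1 h 19 were called higher and none lower, with a list median of 4.33 beside −0.17 for all probe sets; the 2 not called were Fos (0.20) and Vegfa (1.02). At 5 h 16 were higher and 1 lower (Vegfa, −2.27), with a median of 4.18 beside −0.48. Il1a (8.50 at 1 h), Ptgs2 (8.35) and Il6 (10.03 at 5 h) had 0 h signals under the floor, so their changes are lower bounds. Csf2 (5.38 at 1 h) and Il23a (3.01) were under the floor at 0 h and at 5 h. Their 1 h changes are thus lower bounds too, and their 5 h changes, counted as not called, cannot be read. Il1a, Ptgs2, Il6, Csf2 and Il23a, among others of this list, passed the filter only through arrays with LPS. For Il23a this was the WT 1 h array alone. The calls of these genes as higher are thus not separate support. Of 15 p53 target and growth arrest genes 3 were higher at 1 h (Mdm2, 2.83, Cdkn1a, 1.86, and Ddit4, 1.30) and 1 lower (Sesn1, −1.63); at 5 h 3 were higher and 10 lower, beside 20.8% and 49.8% of all probe sets, with Sesn1 (−7.11) and Trp53inp1 (−5.15) the lowest. The p53 list's median at 5 h was −1.24, and 7 were called lower with equal medians. No gene of any of these lists was called between KO and WT, beside the 0.0305% of all probe sets that were.

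**Figure D4:**
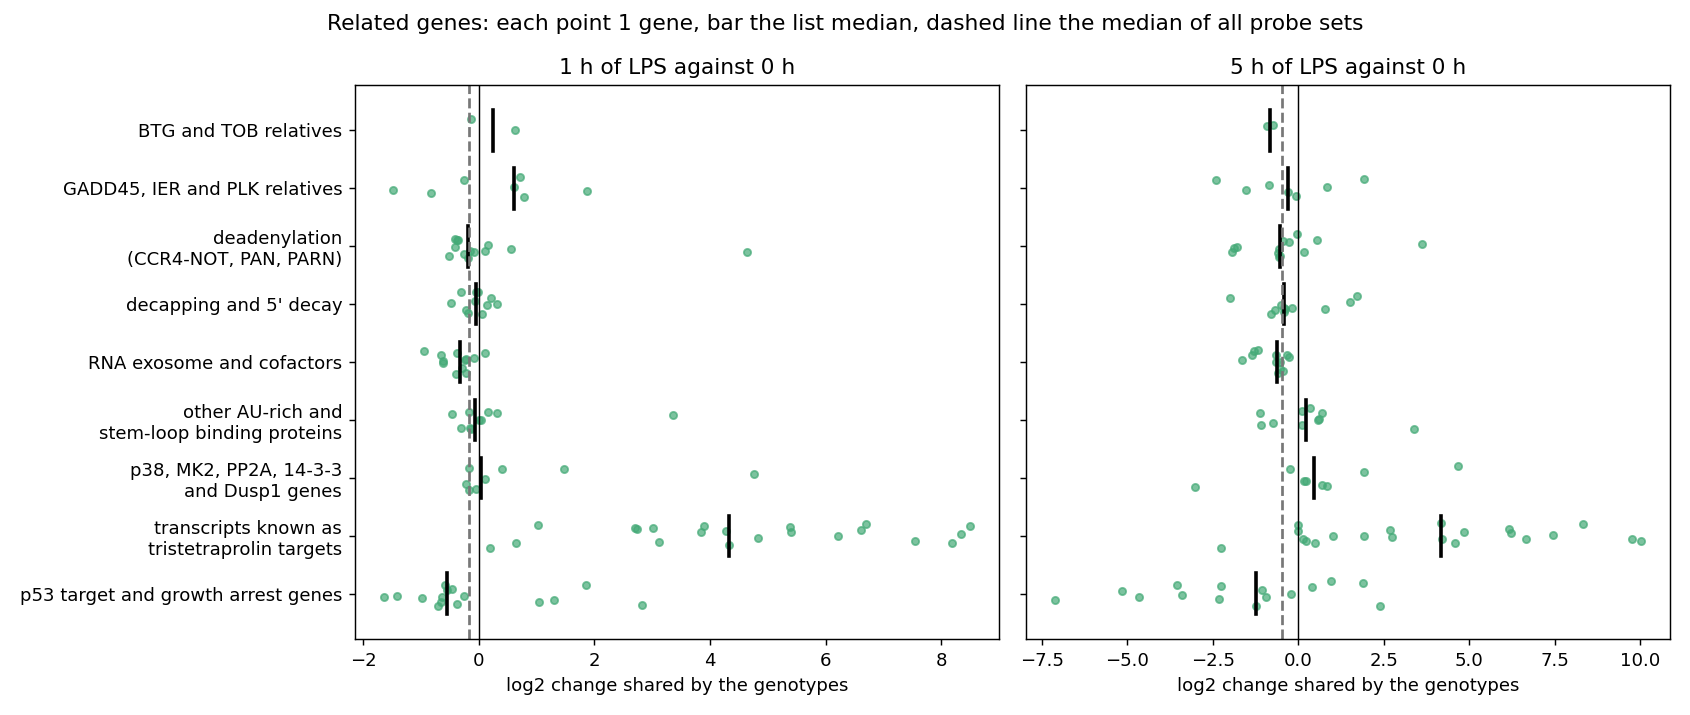
Log2 change shared by the genotypes at 1 h (left) and 5 h (right) of LPS for genes of the related lists, each point 1 gene on its brightest probe set, with a bar at the list median and a dashed line at the median of all probe sets (−0.17 and −0.48). The list of known tristetraprolin targets, most of them cytokine or chemokine genes, has the median farthest from the dashed line, 4.33 at 1 h. The list medians of deadenylation, decapping and exosome genes lie near this line at both times. Single genes of these lists lie far from it, such as Noct (4.64 at 1 h).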

How the data were processed

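Arrays were 1 per genotype and time, 6 in all, grouped by the labels' titles and the series' design text. The deposited values are intensities on a linear scale: MAS5 signals computed by the authors, per the submitters' processing notes, for 22690 probe sets; its version was not stated. With 2% trimmed at either end, array means were all between 500.2 and 500.3, so the deposited values share a scaling. From these, signals were floored at 18.3 and log2 was taken; the 64 control probe sets and probe sets never above their array's median were left out, and 13100 remained. limma 3.58.1 in R 4.3.3 fitted genotype and time as additive terms (2 residual degrees of freedom, prior 2.23), a script tested on simulated data, with Benjamini-Hochberg adjustment over all 13100. The fit's spread, and so every p-value, leaves out the spread between animals; the number of arrays limits the precision. The genes named are the 10 genes with all their probe sets, Nfkbib and each gene's 3 nearest profiles. Genes of the related lists come from the 2 highest and 2 lowest of each list at each time, not all of which are printed. Markers come from the marker lists. Xrn1, Ddit4, Il23a, Xist and Eif2s3y, outside these rules, were chosen after their values were seen. A gene's brightest probe set by mean signal represents it. Members, lists and tests were chosen with earlier results of these data known. Alternatives were quantile normalization, equal array medians, a floor at the 10th percentile (4.89), no filter, 1 probe set per gene, an intensity trend and leaving out each array.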

Additional observations from a re-analysis of the deposited data

Results flagged for a closer look

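In 5 instances the KO and WT arrays of a probe set moved in opposite directions under the same LPS contrast; each direction rests on 2 arrays and the difference was not tested. Ier5 did so on 3 probe sets. The log2 change at 5 h against 0 h was 0.126 in KO and −0.766 in WT on 1417612_at, and 0.325 in KO and −0.248 in WT on 1417613_at. On 1460009_at the change at 1 h was 0.131 in KO and −0.375 in WT. Zfp36 changed by −0.051 in KO and 0.171 in WT between 1 h and 5 h. The dim probe set 1420197_at of Gadd45b changed by 0.333 in KO and −0.00505 in WT between 1 h and 5 h.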

How the results depend on the processing

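At 1 h and 5 h against 0 h, all member changes except the 5 h values of Btg1 and Ier5 had the same direction under every alternative run; the calls held less often. Zfp36 and Gadd45b were called at both times, and Zfp36l1, Zfp36l2, Ier2 and Ier3 at 5 h, under all of them. With equal array medians the 5 h change was 0.43 for Btg1 and 0.44 for Ier5, and the 5 h minus 1 h change of Plk2 was 0.21; that of Zfp36 was −0.034 after quantile normalization. KO minus WT, never called for a member, changed sign for Zfp36l2 (0.030 and 0.044) and Btg1 (0.028 and 0.045) under quantile normalization and equal medians, and for Plk2 (0.012) under equal medians. With equal medians 389 probe sets were called lower at 1 h, 5404 higher and 3183 lower at 5 h, 4945 higher and 2837 lower at 5 h against 1 h, and 4 higher and 7 lower in KO; between 1 h and 5 h 2 members were called higher and 3 lower. With no filter 152 probe sets were called higher and 90 lower at 1 h, with 2 members higher and 0 lower, 4 members were lower between 1 h and 5 h, and 0 probe sets were lower in KO. With 1 probe set per gene, which tests fewer features, 409 were higher at 1 h, 1463 higher and 4054 lower at 5 h, 1392 higher and 3418 lower between 1 h and 5 h, and 1 lower in KO, as with the lower floor (1). With an intensity trend 1062 were higher and 1246 lower at 1 h, 9 higher and 10 lower in KO, and 1 member (Gadd45b) was higher at 5 h than at 1 h. The list medians below are given minus the median of all probe sets. After quantile normalization they were 0.077 at 1 h and 0.33 at 5 h for the p38, MK2, PP2A, 14-3-3 and Dusp1 genes, −0.20 at 5 h for the GADD45, IER and PLK relatives, and 4.30 at 5 h for the tristetraprolin targets; at the lower floor the targets were at 5.00 at 1 h. With no filter they were 0.019 at 1 h and 0.42 at 5 h for the other AU-rich and stem-loop binding proteins, 0.12 and 0.65 for the p38 list, and at 5 h −0.64 for BTG and TOB, −0.11 for GADD45, IER and PLK, −0.33 for deadenylation, −0.22 for decapping, −0.43 for the exosome, 4.37 for the targets and −1.04 for the p53 list. With 1 probe set per gene they were 0.80 for the AU-rich list and 1.02 for the p38 list at 5 h. Leaving out 1 array at a time gave 112 to 554 probe sets higher and 10 to 387 lower at 1 h, 2 to 6 members higher and 0 to 1 lower; 1568 to 2181 probe sets higher and 3471 to 4911 lower, and 4 to 7 members lower, between 1 h and 5 h; and 0 in KO minus WT. KO minus WT then ranged from −0.039 to 0.0049 for Btg1, −0.0027 to 0.12 for Gadd45b, −0.19 to 0.049 for Plk2, −0.084 to 0.21 for Ier3, −0.087 to 0.080 for Zfp36l2 and −0.010 to 0.20 for Btg2. The 5 h change of Ier5 ranged from −0.66 to 0.015 and the 5 h minus 1 h change of Zfp36 from −0.055 to 0.18. List medians then ranged, at 1 h, from 0.43 to 0.86 for GADD45, IER and PLK, 0.12 to 0.31 for the p38 list, 0.088 to 0.19 for the AU-rich list, 4.34 to 5.01 for the targets, −0.091 to 0.11 for deadenylation and −0.025 to 0.15 for decapping. At 5 h they ranged from −0.045 to 0.13 for deadenylation, −0.25 to 0.022 for the exosome, 0.91 to 1.02 for the p38 list, 0.68 to 0.80 for the AU-rich list, −1.09 to −0.61 for the p53 list and −0.050 to 0.21 for decapping. The cause of these shifts was not tested. The labels carry no replicate numbers, so arrays could not be paired by animal. Genotype is a term of the fit, so each LPS change was compared within genotype. Signals near the floor, such as 1451034_at and 1460009_at at 5 h, limit what can be read from dim probe sets.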
